A study of Mus musculus with 6 samples.

Results

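Genes of the extracellular matrix and of its cell-surface receptors were examined in cultured mouse embryonic fibroblasts with and without cyclophilin D. They were taken by symbol from the probe annotation: collagens (Col), laminin chains (Lama, Lamb, Lamc), integrin subunits (Itga, Itgb), Adam and Adamts proteases with the Adamts-like proteins, fibulins (Fbln), lysyl oxidases (Lox), nidogens (Nid), and the proteoglycan genes Vcan and Ogn, with Col2a1 left out. The rule gave 63 genes on 89 probes, of 7606 genes with a named probe. Fibrillins (Fbn) were also covered by the rule, but 0 of the named probes carried such a symbol, and they were not analysed here. All 63 genes had a probe bright enough to be tested, as did 7605 of the 7606 named genes.

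The cells grew out of embryos at embryonic day 13.5, of C57BL/6 strain background, and were kept in DMEM supplemented with 10% fetal calf serum. The series has 3 arrays of wild-type cells and 3 of CypD knockout cells, with letters A, B and C in each group. CypD is cyclophilin D, a mitochondrial peptidyl-prolyl isomerase encoded by Ppif. The labels do not say how the allele was made or whether the letters stand for separate embryos or cultures. The p-values therefore reflect array-to-array spread alone, and that spread may be technical. In bulk RNA of this kind, fewer cells of a type and less RNA per cell cannot be told apart.

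The matrix that fibroblasts lay down is a composite. Fibril-forming collagens give tensile strength, and type IV collagen, laminins and nidogens make up basement membranes. Integrins are paired receptors, an alpha with a beta subunit, that bind these proteins outside the cell and link them to actin inside. Lysyl oxidases cross-link collagen and elastin, fibulins and proteoglycans fill and organise the network, and Adam and Adamts proteases shed surface proteins or cut matrix proteins.

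Ppif itself was lower in every knockout array, at 12.25, 12.35 and 12.18 against 13.57, 13.70 and 13.62 in wild type (normalized log2 intensity, arrays A, B and C). The difference was -1.37 ± 0.066 (log2, SE). The knockout signal was thus 2.59-fold lower but still at the 93.6th percentile of all probes. Where this probe sits relative to the altered part of the gene is unknown here, so it checks the labels only in part. Array medians ran from 223 to 251, and normalized values correlated across probes at 0.992 to 0.994 within groups and at 0.984 to 0.986 between them. The culture type was checked with 10 fibroblast markers, of which 7 had a tested probe: Pdgfra rose, Col1a1, Col1a2, Dcn and S100a4 fell, and Fn1 and Vim did not pass. That is 71.4% called, beside 43.6% of all tested named genes. The summed linear signal of these markers was 34990 to 36030 in wild type and 25120 to 29620 in knockout. Col1a1 and Col1a2 are themselves among the members. The type I collagen and fibronectin signals lay at or above the 92.8th percentile of all probes in both groups, while those of Dcn and Vim lay at or below the 68.0th.

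Matrix and adhesion genes split between rises and falls in the knockout cells. Of 63 members, 19 rose, 24 fell and 20 did not pass the test, which is limma's moderated test on log2 intensities with an adjusted p under 0.05. That is 68.3% called, beside 43.6% of all 7605 tested named genes (21.8% upward and 21.8% downward) and 20% of all probes kept (9.78% upward and 10.2% downward). Only probes in the authors' processed table were named. Each of those varied at least 1.2-fold over the arrays and had a highest linear intensity of at least 273. Named genes are therefore the fitting background. At least 2-fold changes numbered 14 of 63, 9 upward and 5 downward, beside 6.07% of named genes. The count was 6 upward and 3 downward without background correction, and the same with the authors' processed table, while falls also numbered 3 with a 70th percentile filter. In the called members Col9a3, Col10a1, Lama1, Itgb7 and Adam23, the signal of 1 group ranked under the 40th percentile. That range is taken here as not separated from background, so the size of their differences is uncertain. The limit is the filter set here, as the files hold no detection p-value. Itgb4 in knockout, at the 44.3rd percentile, lay little above it, and 18 members had a group mean below the 70th percentile. The median log2 fold change was -0.14 over the members and 0.0082 over all named genes, and the median size was 0.40 and 0.24. The members' median was -0.0039 without knockout array A, -0.080 without wild-type array A and -0.042 among the 46 members above the 70th percentile. Groups did not overlap in 49 members, or 77.8%, beside 56.1% of named genes. Only 1 of the 43 called members overlapped, so separate groups of a called gene, where given below, add no support to its call.

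**Figure D1:**
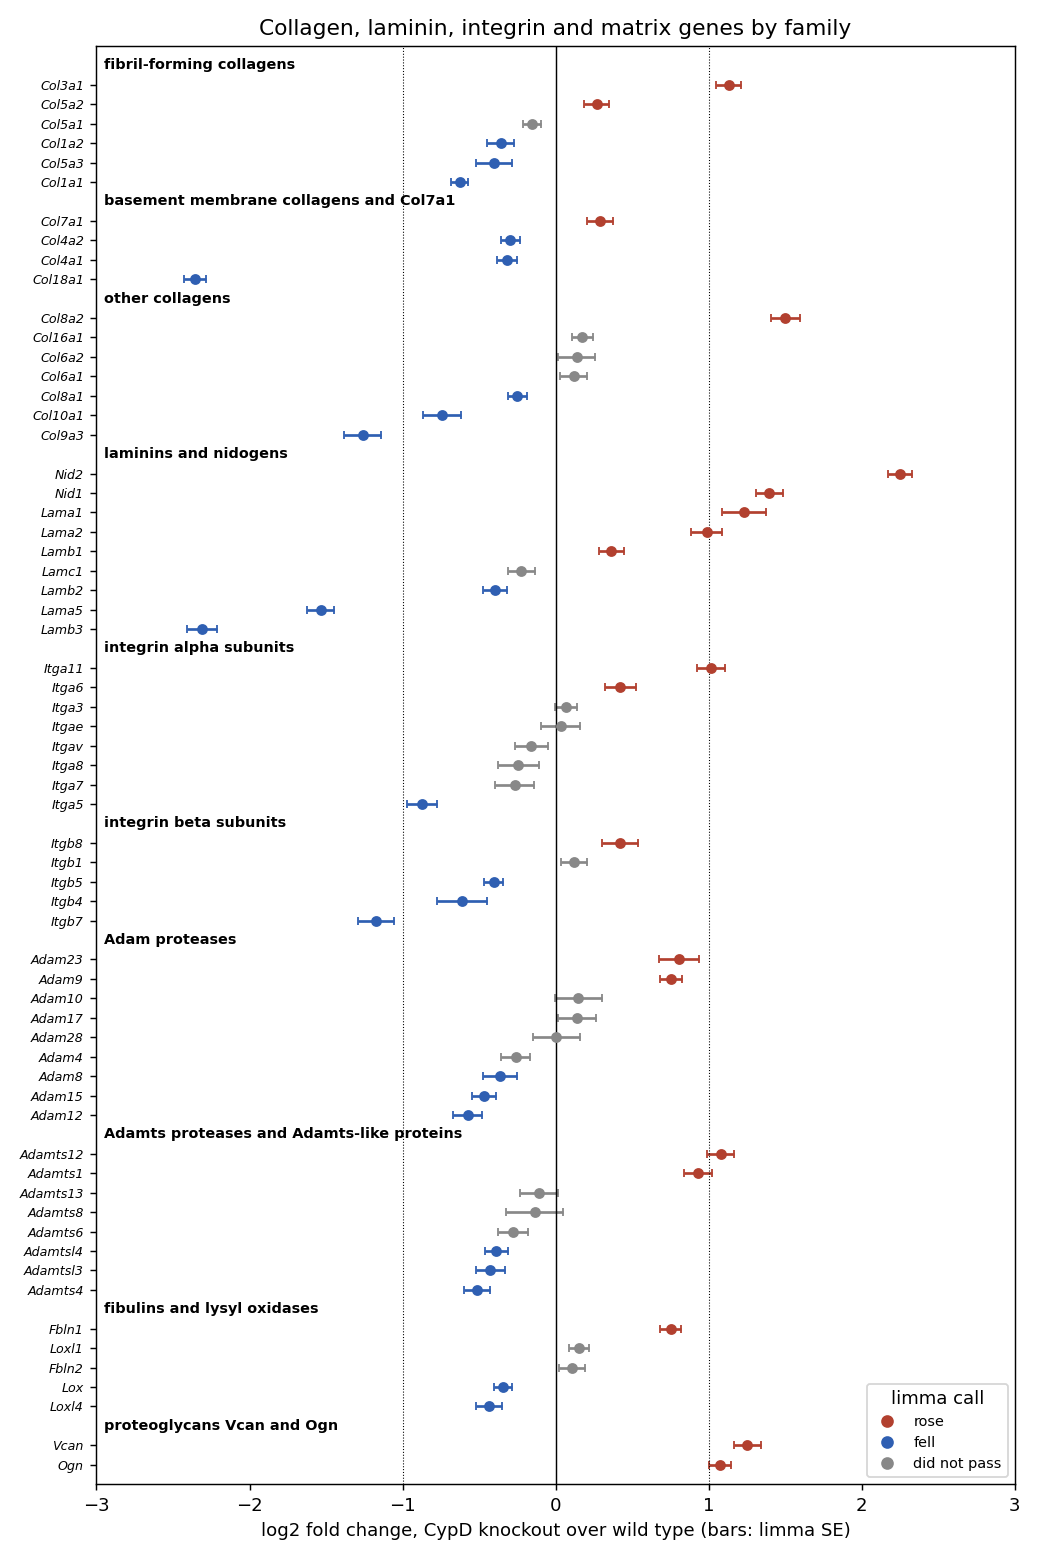
Log2 fold change (knockout over wild type, x axis) of each of the 63 genes by family, with limma SE bars and dotted lines at a 2-fold change. The 19 rises in red and 24 falls in blue lie on both sides of 0 in every family except the pair Vcan and Ogn, and the Col5a2 rise is that of its brightest probe only.

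**Figure D2:**
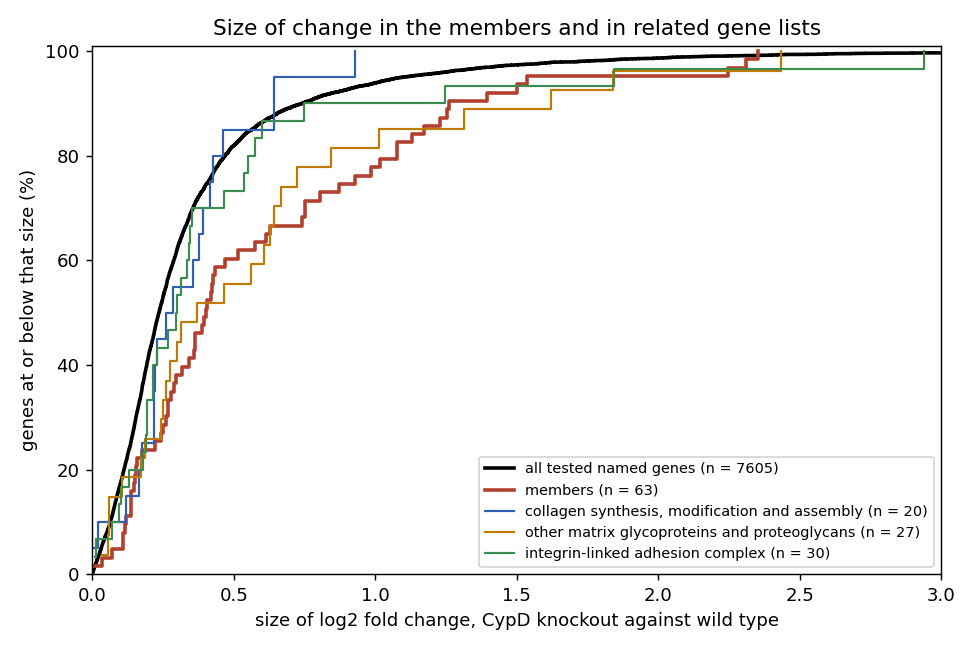
Cumulative share of genes (y axis, percent) by size of log2 fold change in either direction (x axis), for the 63 members, 3 related gene lists and all 7605 tested named genes. The median size is 0.40 for the members and 0.24 for named genes.

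Fibril-forming collagens moved apart from one another. Col3a1, which encodes type III collagen of elastic tissues, rose, while the chains of type I collagen, the main fibril protein of skin, tendon and bone, fell. Col3a1 read 9.96, 9.70 and 9.80 in wild-type arrays A, B and C and 10.96, 10.92 and 10.97 in knockout arrays. Every knockout value stood above every wild-type value, a 2.19-fold rise (log2 fold change 1.13 ± 0.084, adjusted p = 2.69e-07). Col1a1 went down 1.55-fold (13.99 ± 0.058 in wild type and 13.36 ± 0.036 in knockout, SD, n = 3, limma adjusted p = 1.76e-06). Col1a2 fell by 0.36 ± 0.090 on the log2 scale (adjusted p = 0.0112). The Col1a2 call was lost without wild-type array A (adjusted p = 0.0511) or knockout array B (adjusted p = 0.0674).

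Type V collagen, which starts fibrils and limits their width, gave no single direction. Col5a1 read 14.99, 14.88 and 14.77 in wild type and 14.73, 14.75 and 14.70 in knockout, groups that did not overlap but did not pass (-0.15 ± 0.058, adjusted p = 0.0831). Some alternatives brought it past the threshold, namely median scaling (-0.26, adjusted p = 0.0077), array weights (adjusted p = 0.0314) and leaving out wild-type array C (adjusted p = 0.015). The dimmer Col5a3 fell by 0.40 ± 0.12 on the log2 scale (adjusted p = 0.0245), a call lost without wild-type array A or B or knockout array A or B (adjusted p = 0.112, 0.0642, 0.0859 and 0.0963). Col5a2 had 3 probes that contradicted each other. Its brightest probe gave 0.27 ± 0.082 (adjusted p = 0.0327), with 11.78, 11.98 and 11.80 in wild type and 12.17, 11.98 and 12.22 in knockout, and it is the only called member whose groups overlapped. The other Col5a2 probes gave -0.79 (adjusted p = 9.94e-05) and -0.55 (adjusted p = 0.00168), so the direction of Col5a2 depended on the probe. The upward call was also lost with median scaling (adjusted p = 0.0839), without an intensity trend (adjusted p = 0.0922), with the replicate block (adjusted p = 0.0536) and without wild-type array A or C or knockout array A or C (adjusted p = 0.124, 0.058, 0.113 and 0.147). Col5a2 lies next to Col3a1 on chromosome 1, with 0 protein-coding genes between them.

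Basement membrane collagens fell in the knockout cells. Col18a1, a collagen that carries heparan sulfate chains and yields the fragment endostatin, had the largest fall of the 63 genes. It read 13.61, 13.67 and 13.70 in wild type and 11.40, 11.34 and 11.17 in knockout, a 5.11-fold lower signal (log2 fold change -2.35 ± 0.071, adjusted p = 2.67e-11). The groups were far apart, and the second Col18a1 probe was lower too, by -1.24. Col4a1 and Col4a2, whose products wind together into the type IV collagen network, fell by nearly the same amount. Col4a1 read 13.73, 13.61 and 13.54 against 13.36, 13.36 and 13.22 (-0.32 ± 0.066, adjusted p = 0.00324). Col4a2 read 12.51, 12.51 and 12.47 against 12.18, 12.20 and 12.23 (-0.29 ± 0.061, adjusted p = 0.0031). Neither gene's groups overlapped, as in 56.1% of all tested named genes, although both changes were small. Col7a1, the collagen of anchoring fibrils, instead had 0.29 ± 0.086 (adjusted p = 0.0291). That call was lost without wild-type array A or C, without any 1 knockout array (adjusted p = 0.0984, 0.0638, 0.0847, 0.0613 and 0.104 in that order) and without an intensity trend (adjusted p = 0.0522).

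Promoter windows of 5 members are shown. The first pair, Col4a1 and Col4a2, moved together and lie on opposite strands of chromosome 8 with their annotated starts close together. Col18a1, Nid1 and Vcan changed at least 2-fold. All 5 windows were chosen after the matches were seen and all hold some. The windows of Lamb3 (both entries) and the second Col18a1 entry, which hold 0 matches, and of Col3a1, which holds TATAAA alone, were searched too and are not printed. Each window is the RefSeq entry for mouse build GRCm38.p6, 5′ to 3′ on the strand of the gene, with 250 bases before the annotated start and 50 after it. They lie at chr8:11312777-11313076 on the minus strand (Col4a1), chr8:11312555-11312854 on the plus strand (Col4a2), chr10:77166481-77166780 on the minus strand (the upstream of 2 Col18a1 entries), chr13:13437352-13437651 on the plus strand (Nid1) and chr13:89742463-89742762 on the minus strand (Vcan). Capitals mark CCAAT and GGGCGG (the GC box) on either strand. TATAAA and TGANTCA, the AP-1 site, were searched too and are in none of these windows.
Col4a1: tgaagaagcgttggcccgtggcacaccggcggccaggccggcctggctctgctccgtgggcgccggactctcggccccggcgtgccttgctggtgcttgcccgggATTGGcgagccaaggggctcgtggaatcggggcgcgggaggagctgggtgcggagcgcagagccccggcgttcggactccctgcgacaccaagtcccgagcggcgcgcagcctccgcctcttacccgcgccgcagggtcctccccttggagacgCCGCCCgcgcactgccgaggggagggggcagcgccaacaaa
Col4a2: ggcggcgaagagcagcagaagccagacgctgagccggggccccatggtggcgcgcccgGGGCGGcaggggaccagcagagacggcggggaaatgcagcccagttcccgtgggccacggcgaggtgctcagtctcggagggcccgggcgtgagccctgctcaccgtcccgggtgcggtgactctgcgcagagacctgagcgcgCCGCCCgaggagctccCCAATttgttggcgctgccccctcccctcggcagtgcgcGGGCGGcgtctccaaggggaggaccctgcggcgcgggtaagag
Col18a1: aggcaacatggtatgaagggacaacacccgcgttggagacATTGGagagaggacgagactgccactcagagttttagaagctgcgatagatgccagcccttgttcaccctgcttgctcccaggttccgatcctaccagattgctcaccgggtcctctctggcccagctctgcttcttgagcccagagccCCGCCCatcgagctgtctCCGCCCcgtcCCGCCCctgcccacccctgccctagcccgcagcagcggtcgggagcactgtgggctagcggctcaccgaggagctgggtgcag
Nid1: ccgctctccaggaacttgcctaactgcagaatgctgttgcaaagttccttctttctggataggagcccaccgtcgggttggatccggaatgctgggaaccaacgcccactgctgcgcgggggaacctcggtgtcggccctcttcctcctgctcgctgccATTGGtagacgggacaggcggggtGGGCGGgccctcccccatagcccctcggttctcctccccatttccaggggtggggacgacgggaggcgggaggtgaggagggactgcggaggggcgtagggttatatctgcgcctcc
Vcan: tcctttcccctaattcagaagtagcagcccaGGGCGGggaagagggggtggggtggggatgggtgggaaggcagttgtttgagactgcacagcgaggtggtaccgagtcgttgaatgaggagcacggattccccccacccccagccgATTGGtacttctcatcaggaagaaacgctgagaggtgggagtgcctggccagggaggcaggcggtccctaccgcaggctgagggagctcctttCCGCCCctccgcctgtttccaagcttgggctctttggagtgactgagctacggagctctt

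In this annotation the Col4a1 and Col4a2 starts lie 21 bases apart, and their windows share 78 bases. Each gene is transcribed across the start of the other, so their annotated first bases overlap. The shared stretch holds 1 GC box, read on opposite strands in the windows. It begins at position 7 from the Col4a2 start and at 9 from the Col4a1 start, within that overlap. CCAAT matches begin at -32 in Col4a2, -145 in Col4a1, -210 in Col18a1, -103 in Vcan and -91 in Nid1, where a GC box follows at -67. Of 44 members with a promoter entry, 31 (70.5%) held GGGCGG, beside 66.5% of 6123 promoters of tested named genes and 35.9% of all 27025 promoters. CCAAT was in 14 (31.8%, beside 39.5% and 37.9%), TATAAA in 4 (9.09%, beside 7.38% and 14.2%) and TGANTCA in 1 (2.27%, beside 4.87% and 7.93%). GGGCGG was in 7 of 14 promoters of members that rose, in 14 of 18 of those that fell and in 10 of 12 of those that did not pass. No test was made of these counts, 0 matches of different motifs overlap in the windows printed, and a match is a run of letters, not a shown binding site.

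Collagens outside these groups changed in both directions. Col8a2 and Col8a1 encode the chains of type VIII collagen, a short-chain network collagen of vessel walls and the cornea, and they moved in opposite directions. Col8a2 rose 2.83-fold, with 8.13, 8.14 and 8.36 in wild type and 9.71, 9.71 and 9.72 in knockout (SE 0.094 on the log2 scale, adjusted p = 4.46e-08). The knockout arrays were nearly identical and all stood above wild type. Col8a1 fell by 0.25 ± 0.064 (adjusted p = 0.0124), with -0.38 for its second probe, and the call was lost without knockout array C (adjusted p = 0.0669) and without an intensity trend (adjusted p = 0.0695).

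Col9a3 and Col10a1, collagens known from cartilage, were lower, whereas Col2a1, the main cartilage collagen, which the selection left out, stood at 2.28 on the log2 scale in the opposite direction. Col9a3, a chain of type IX collagen on cartilage fibrils, read 8.08, 8.10 and 7.93 in wild type and 6.57, 6.98 and 6.78 in knockout (-1.26 ± 0.12, adjusted p = 3.35e-06). In knockout it sat at the 31.9th percentile of all probes. Col10a1, the collagen of hypertrophic cartilage, fell by 0.74 ± 0.12 (adjusted p = 0.000588), also to the 31.9th percentile. Beside these falls, Sox9, the only cartilage marker of 6 with a tested probe, rose by 1.10 ± 0.081 on the log2 scale, with a linear signal of 5297 to 6599 in wild type and 12140 to 13730 in knockout. The part of cartilage-like cells in these values was not tested.

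Type VI and type XVI collagen genes did not pass. Col6a1 and Col6a2, neighbours on chromosome 10 that encode chains of the beaded microfilament collagen, had 0.12 ± 0.088 and 0.14 ± 0.12. Col6a1 read 13.64, 13.93 and 13.55 in wild type and 13.91, 13.71 and 13.86 in knockout, and the groups overlapped. It passed without wild-type array B (0.23, adjusted p = 0.0499). Col16a1, a collagen attached to fibrils, had 0.18 ± 0.066 (adjusted p = 0.0831) with groups that did not overlap, and passed when wild-type array C was left out (adjusted p = 0.024) or arrays were weighted (adjusted p = 0.0369).

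Laminins and nidogens had the largest median size of change of all families here, 1.23 on the log2 scale. That median is the Lama1 value, whose size is uncertain because its wild-type signal ranked at the 33.0th percentile. The pair Vcan and Ogn had 1.16, so the order of these families is uncertain as well. Among the 9 genes there were 5 rises, 3 falls and 1 without a call, and 5 changes of at least 2-fold. That is 88.9% called, beside 43.6% of all tested named genes, of which 6.07% changed at least 2-fold. Nid2 and Nid1 encode nidogens, the rod-like proteins that join laminin to type IV collagen. Nid2 had the largest rise of the 63 genes, from 9.74, 9.54 and 9.66 in wild type to 11.92, 11.92 and 11.84 in knockout, or 4.75-fold (2.25 ± 0.079, adjusted p = 1.03e-10). Nid1 read 10.27, 10.20 and 10.47 against 11.76, 11.61 and 11.76, a 2.63-fold rise (1.40 ± 0.086, adjusted p = 3.67e-08), and its second probe gave 1.47. For both nidogens the groups lay more than 1 log2 unit apart.

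Laminin alpha chains, which bear the main sites for cell receptors, went in different directions. Lama1, the alpha chain of the early embryo, was dim in wild type at 6.46, 6.88 and 7.04 (33.0th percentile) and read 8.17, 7.98 and 7.92 in knockout (1.23 ± 0.14, adjusted p = 2.14e-05). Lama2, the alpha chain of muscle and peripheral nerve, rose 1.98-fold (0.99 ± 0.100, adjusted p = 5.88e-06). Lama5, the widespread alpha chain of mature basement membranes, fell from 10.14, 9.97 and 10.15 to 8.57, 8.54 and 8.55, or 2.90-fold (-1.54 ± 0.088, adjusted p = 1.68e-08). In each of these alpha chain genes the groups were separate, as in 56.1% of all tested named genes.

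Among the beta and gamma chains, Lamb3 changed most. Lamb3 belongs to the laminin that anchors epithelia, and it read 10.20, 10.22 and 10.40 in wild type and 7.93, 8.08 and 7.88 in knockout, a 4.96-fold fall (-2.31 ± 0.096, adjusted p = 6.66e-10). Lamb1, the common beta chain, rose by 0.36 ± 0.082 (adjusted p = 0.00586), whereas Lamb2, the beta chain of synapses and kidney, fell by 0.40 ± 0.075 (adjusted p = 0.00166). Lamc1, the gamma chain shared by most laminins, read 10.47, 10.73 and 10.69 in wild type and 10.43, 10.45 and 10.34 in knockout. It did not pass (-0.22 ± 0.086, adjusted p = 0.0924), except without wild-type array A (adjusted p = 0.0375). Beside the Lamb3 fall, 3 of 11 epithelial markers had a tested probe: Krt19 fell, Spint1 rose and Cdh1 did not pass, with a summed linear signal of 1372 to 1425 in wild type and 1822 to 1935 in knockout. The part of epithelial cells in the Lamb3 value was not tested.

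**Figure D3:**
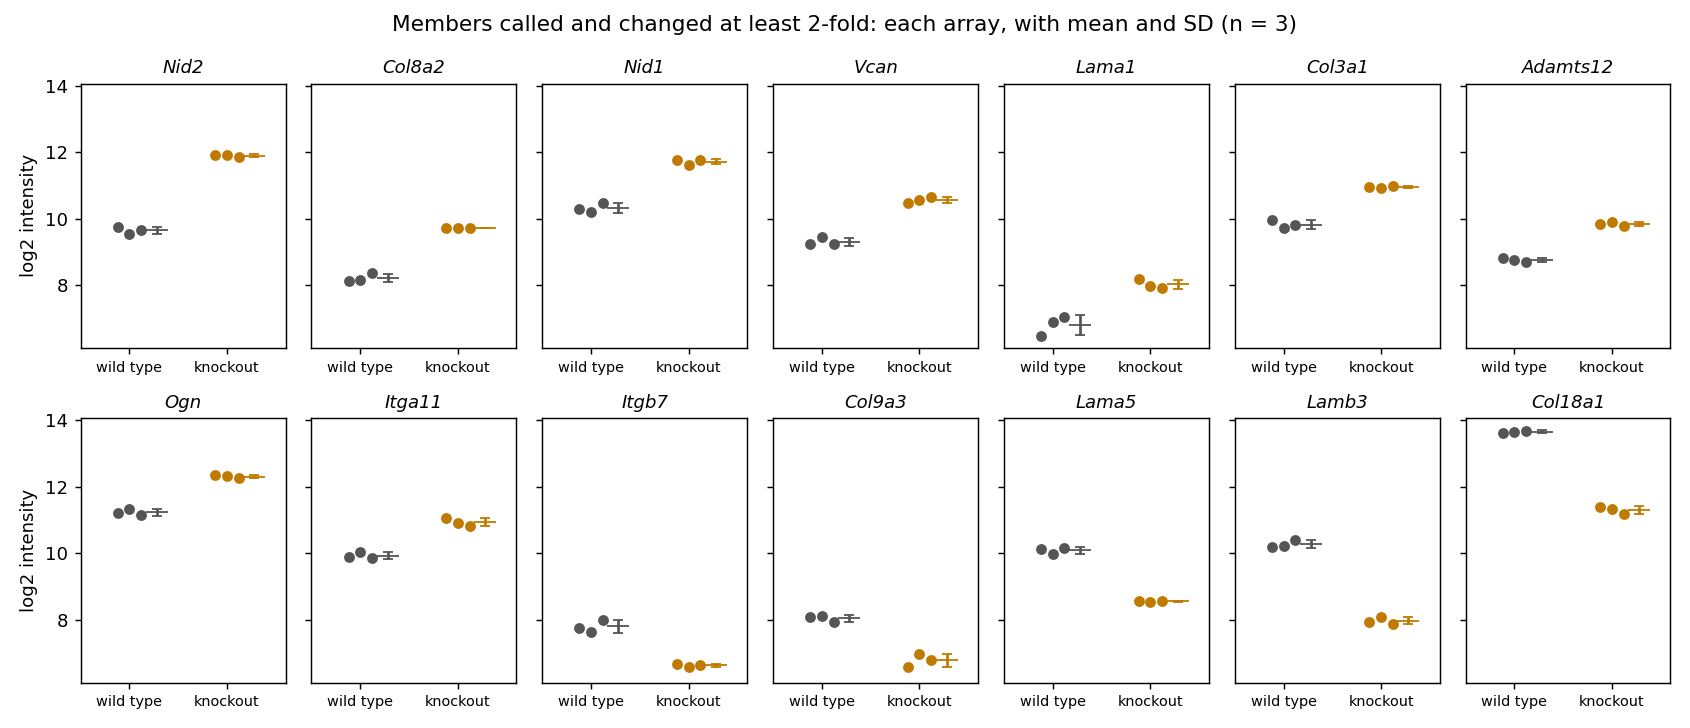
Normalized log2 intensity (y axis, same scale in all panels) of the 14 genes called and changed at least 2-fold, one dot per array, with the mean and SD of 3 arrays beside each group. In all 14 panels the 3 knockout arrays lie wholly above or wholly below the 3 wild-type arrays, beside 56.1% of named genes. Genes picked by a called 2-fold difference in these same arrays rarely overlap, so the separation adds no support. In Lama1, Col9a3 and Itgb7, 1 group ranked under the 40th percentile.

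Of 13 integrin subunits 7 were called, 3 upward and 4 downward, a share near the 43.6% of all tested named genes. The collagen receptor subunit Itga11, typical of fibroblasts, rose 2.02-fold, from 9.88, 10.04 and 9.85 to 11.07, 10.92 and 10.82 (1.02 ± 0.089, adjusted p = 1.41e-06), with 0.62 for its second probe. Itga5, which with Itgb1 forms the main fibronectin receptor, fell 1.83-fold from 9.06, 9.10 and 9.17 to 8.14, 8.40 and 8.18 (-0.87 ± 0.098, adjusted p = 1.72e-05), with -0.39 for its second probe. The groups were separate for both genes, as in 56.1% of all tested named genes. Their shared partner Itgb1 read 10.42, 10.20 and 10.28 in wild type and 10.52, 10.38 and 10.36 in knockout, with overlap. Itgb1 had 0.12 ± 0.086 by its brightest probe and -0.36 by the other, and neither passed (adjusted p = 0.412 and 0.325).

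Among subunits of laminin receptors, Itga3 and Itga7 did not pass, and Itga6 and Itgb4 were called in opposite directions. Itga3 read 13.66, 13.43 and 13.65 in wild type and 13.74, 13.57 and 13.65 in knockout, and the groups overlapped (0.07 ± 0.071, adjusted p = 0.595). Its sign turned with median scaling (-0.0077) and without wild-type array B (-0.0029). Itga7, a laminin receptor of muscle, had -0.27 ± 0.13 (adjusted p = 0.183). Itga6 had 0.42 ± 0.10 (adjusted p = 0.00789) by its brightest probe, a call lost without knockout array C (adjusted p = 0.0546), but -0.066 (adjusted p = 0.803) by its other probe. Itgb4, the partner of Itga6 in hemidesmosomes, fell by 0.61 ± 0.16 (adjusted p = 0.0169), a call lost without wild-type array A or B or knockout array B or C (adjusted p = 0.0622, 0.0646, 0.0813 and 0.09).

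Itgb5, a partner of Itgav on vitronectin, fell by 0.41 ± 0.064 on the log2 scale (adjusted p = 0.000404), while Itgav itself had -0.16 ± 0.11 and -0.0069 by its 2 probes. Itgb8, which with Itgav binds latent TGF-beta, had 0.42 ± 0.12 (adjusted p = 0.0227), a call lost without wild-type array A or C or knockout array A or B (adjusted p = 0.0551, 0.0661, 0.0767 and 0.104). Itga8, a nephronectin receptor subunit, had -0.24 ± 0.13 and did not pass. The lymphocyte subunit Itgb7 read 7.76, 7.63 and 8.0 in wild type and 6.67, 6.56 and 6.64 in knockout, a fall of 1.17 ± 0.12 on the log2 scale (adjusted p = 5.45e-06). Its knockout signal lay at the 21.1st percentile of all probes and its wild-type signal at the 67.5th. Itgae, its partner on lymphocytes of epithelia, had 0.03 ± 0.13. Beside this, 2 of 10 leukocyte markers had a tested probe, Cd14 and Coro1a, and neither passed, with a summed linear signal of 864 to 1066 in wild type and 879 to 902 in knockout.

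Adam proteases, membrane-bound enzymes that shed surface proteins, gave 2 rises, 3 falls and 4 genes that did not pass, and 0 of the 9 changed 2-fold. That is 55.6% called, beside 43.6% of all tested named genes, of which 6.07% changed at least 2-fold. These shares are near each other, so nothing is read from the counts about the family. Adam9 rose 1.68-fold (0.75 ± 0.073, adjusted p = 3.87e-06), from 12.26, 12.51 and 12.40 to 13.07, 13.21 and 13.15, with no overlap. Adam23, which lacks protease activity and acts in adhesion, had 0.80 ± 0.13 (adjusted p = 0.000517) from a wild-type signal at the 27.3rd percentile. Adam12 and Adam15 fell by 0.57 ± 0.095 and 0.47 ± 0.076 (adjusted p = 0.00054 and 0.00046). Adam8, known from leukocytes and bone, had -0.36 ± 0.11 (adjusted p = 0.033), and its call was lost without wild-type array B or C or any 1 knockout array (adjusted p = 0.118, 0.0701, 0.125, 0.0511 and 0.0789). The general sheddase genes Adam10 and Adam17 did not pass, with 0.15 ± 0.15 and 0.14 ± 0.12. Adam17 read 10.15, 10.24 and 9.74 in wild type and 10.24, 9.99 and 10.30 in knockout, so the groups overlapped. Adam28 had 0.0042 ± 0.15, and the testis gene Adam4 -0.26 ± 0.093 (adjusted p = 0.0658), which passed with a 70th percentile filter (adjusted p = 0.041) and without an intensity trend (adjusted p = 0.0464).

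Secreted Adamts proteases gave 2 rises, and with their protease-free relatives 3 falls. That is 62.5% of 8 genes called, beside 43.6% of all tested named genes. Adamts12 read 8.80, 8.75 and 8.69 in wild type and 9.82, 9.89 and 9.76 in knockout, a 2.11-fold rise (1.08 ± 0.086, adjusted p = 5.2e-07). Adamts1, which cuts versican and aggrecan, rose 1.90-fold (0.93 ± 0.092, adjusted p = 4.92e-06), with 0.72 for its second probe. Adamts4, another protease of these proteoglycans, fell by 0.52 ± 0.084 (adjusted p = 0.000487). The protease-free relatives Adamtsl3 and Adamtsl4 fell by 0.43 ± 0.093 and 0.39 ± 0.076 (adjusted p = 0.00453 and 0.00217). Adamts6 (-0.28 ± 0.097), Adamts8 (-0.14 ± 0.19) and Adamts13, the protease of von Willebrand factor (-0.11 ± 0.12), did not pass. Adamts6 read 8.36, 8.42 and 8.53 in wild type and 8.09, 8.15 and 8.24 in knockout, without overlap, and passed with a 70th percentile filter (adjusted p = 0.041).

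Vcan and Ogn, the only proteoglycan genes named in the rule, both rose, beside 21.8% of all tested named genes that did. Proteoglycan genes of the lists given further below went otherwise. Agrn, Gpc1, Sdc2, Sdc3 and Dcn fell (-0.64, -0.63, -0.67, -0.61 and -0.64), and Gpc6, Sdc1 and Sdc4 did not pass. Vcan, which encodes the large hyaluronan-binding proteoglycan versican, read 9.23, 9.44 and 9.24 in wild type and 10.47, 10.55 and 10.64 in knockout, a 2.38-fold rise (1.25 ± 0.089, adjusted p = 1.67e-07). Its other probes rose by 0.59, 0.58 and 0.36. Ogn, a small leucine-rich proteoglycan that binds collagen fibrils, read 11.22, 11.33 and 11.14 against 12.34, 12.32 and 12.25, a 2.11-fold rise (1.08 ± 0.072, adjusted p = 8.51e-08). Its other probes gave 0.91 and 0.86. No array of either group overlapped with the other group in these brightest probes, as in 56.1% of all tested named genes.

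Fibulins and lysyl oxidases moved by less than 2-fold. Fbln1, a calcium-binding glycoprotein of elastic fibres and basement membranes, rose 1.68-fold (0.75 ± 0.069, adjusted p = 2.15e-06), and all 5 of its probes rose, by 0.36 to 0.77. Fbln2 had 0.11 ± 0.084 and did not pass. Lox, which oxidises lysines of collagen and elastin, read 14.71, 14.49 and 14.57 in wild type and 14.24, 14.26 and 14.24 in knockout (-0.34 ± 0.059, adjusted p = 0.000762). Loxl4 fell by 0.43 ± 0.086 on its brightest probe (adjusted p = 0.00228), but on the other probes it did not pass (-0.27 and -0.22, adjusted p = 0.0552 and 0.316). Loxl1, linked to elastic fibre upkeep, read 14.03, 13.83 and 14.00 against 14.14, 14.04 and 14.13 and did not pass (0.15 ± 0.063, adjusted p = 0.117).

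Of the 63 genes, 18 had more than 1 tested probe. In 15 of them every probe had the same call as the brightest, and in 15 every probe had the same sign. Only Col5a2 had probes called in opposite directions. Itga6 and Loxl4 lost their calls on other probes, and Itgb1 changed sign without a call. The other 45 genes rest on 1 probe each.

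**Figure D4:**
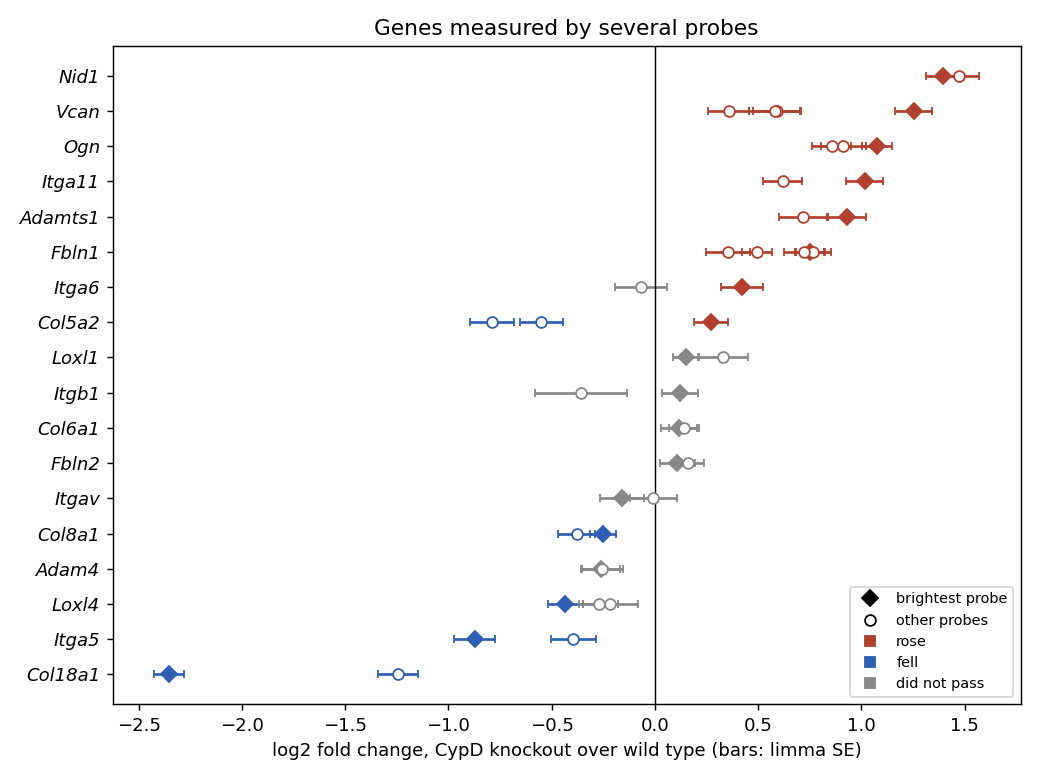
Log2 fold change (x axis, limma SE bars) of every tested probe of the 18 genes with several probes, diamonds for the brightest and open circles for the others. Col5a2 is the only gene with a red and a blue probe, at 0.27 against -0.55 and -0.79.

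Genes that make and process collagen were called at a share near that of all tested named genes. The list of collagen synthesis, modification and assembly holds 37 symbols, some of them older names, and 20 had a tested probe. Of these 5 rose, 6 fell and 9 did not pass, with a median of 0.010. That is 55.0% called, beside 43.6% of all tested named genes. In the list 0 changed at least 2-fold, beside 6.07% of named genes. Nothing is read from these counts about the list. The falls numbered 3 without knockout array A, 4 without wild-type array B, knockout array B or knockout array C, and 4 without an intensity trend. Fkbp14, a prolyl isomerase of the endoplasmic reticulum, rose by 0.64 ± 0.083 (adjusted p = 6.46e-05) and Pcolce, which enhances removal of the procollagen C-propeptide, by 0.46 ± 0.090 (adjusted p = 0.00209). Its relative Pcolce2 fell by 0.93 ± 0.070 (adjusted p = 2.91e-07) and Dcn, the fibril-binding proteoglycan decorin, by 0.64 ± 0.13 (adjusted p = 0.0023). Pdia3, a disulfide isomerase, had -0.22 ± 0.14 and did not pass, except without wild-type array C (-0.44, adjusted p = 0.000321).

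Other matrix glycoproteins and proteoglycans went in both directions. Of 62 listed genes 27 were tested, 7 rose, 10 fell and 10 did not pass, with a median of -0.10. That is 63.0% called, beside 43.6% of all tested named genes. In the list 5 changed at least 2-fold, beside 6.07% of all tested named genes. Mfap2, a protein of elastin microfibrils, rose 5.41-fold (7.64 ± 0.15 in wild type and 10.08 ± 0.064 in knockout, SD, n = 3, limma adjusted p = 5.2e-10), and Svep1, a large adhesion protein, rose to 8.66 ± 0.13 in knockout. Its wild-type signal was at the 34.6th percentile, in the range not separated from background, so no fold is given. Smoc1 and Matn2, proteins of basement membranes and filaments in the matrix, fell 3.07-fold and 2.49-fold (adjusted p = 1.68e-08 and 4.44e-07). Fn1, which encodes fibronectin, had 0.24 ± 0.11 (adjusted p = 0.138), but passed without knockout array B (0.37, adjusted p = 0.0201).

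The last list holds proteins that couple integrins to actin and signalling. Of 52 listed symbols 30 were tested, 5 rose, 11 fell and 14 did not pass (53.3% called, median -0.20). Of all tested named genes 43.6% were called, 21.8% in each direction, and the list's share is near that, so nothing is read from it about the list. The rises numbered 3 with median scaling, without an intensity trend, and without wild-type array B, knockout array B or knockout array C. Csrp1, a LIM protein of the actin cytoskeleton, rose 7.67-fold and Kank1, which surrounds adhesions at the cell cortex, 3.59-fold (adjusted p = 1.7e-09 and 1.38e-08). Cd9, a tetraspanin that binds integrins, fell 1.68-fold (adjusted p = 2.09e-06). Ptk2b, the adhesion kinase Pyk2, fell from 8.03 ± 0.062 (SD, n = 3, limma adjusted p = 5.61e-06) to the 32.4th percentile, in the range not separated from background, so no fold is given. The tetraspanin gene Cd63 had 0.10 ± 0.10 and did not pass.

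Markers listed for other cell types moved as well, which does not show that such cells were present. Of all tested named genes 43.6% were called, 21.8% in each direction. With so few markers tested per list, nothing is read from their counts. Of 5 smooth muscle markers 3 were tested and all 3 fell. Acta2 fell 1.19-fold, Myl9 4.11-fold and Tagln 2.03-fold. The summed linear signal was 63930 to 70730 in wild type and 53230 to 54610 in knockout. Acta2, at the 99.8th percentile of all probes in wild type and the 99.7th in knockout, dominates that sum. Among 10 neural and glial markers 4 were tested, of which Stmn2, Mbp and Nes fell and Ncam1 did not pass (10940 to 13150 against 8308 to 8556). Of 12 endothelial markers 5 were tested, 3 rose, 1 fell and 1 did not pass (3861 to 4117 against 4459 to 4599). Acta1 fell and Myl4 did not pass among 9 skeletal muscle markers, and Xist and Uty, the tested sex-linked genes of 6 listed symbols, did not pass. No intensity was at 0, since the lowest deposited values were 118 to 139. The part of any such cells in the matrix results was not tested.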

How the data were processed

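Biotin-labelled RNA of 3 wild-type and 3 CypD knockout samples was measured on Illumina bead arrays of 45281 probes. The authors deposited 1 table of linear intensities per array and 1 processed table of linear intensities, 0.981 to 1.01 times the quantile-normalized array values. The submitters' processing notes name BeadStudio 3.0. The deposited files hold no detection p-value, slide or scan date, per the file headers. The processed table lists 12534 probes, each with a highest intensity of at least 1.20 times its lowest, and gene names were given for these only. The highest intensity of each was at least 273, so a gene dim in 1 group could be listed through its other group. Symbols came from the platform annotation, and 10643 of 10653 probes with 1 symbol matched RefSeq (GRCm38.p6) by Entrez identifier.

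With limma 3.58.1 (R 4.3.3), intensities were background-corrected (normexp, offset 50), log2-transformed and quantile-normalized between arrays. The 27168 probes above the 40th percentile of mean intensity were fitted (lmFit, eBayes with intensity trend, two-sided, Benjamini-Hochberg over all of them, called under 0.05), and a gene was its brightest tested probe. The offset compresses changes of dim probes, and the number of arrays limits the precision. The fit, without the background correction, was run on simulated data with independent noise and far fewer changed probes than were called here. That run checks the code and does not measure the error rate in these data.

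The members and lists were chosen with earlier results of these data known. Members called and changed at least 2-fold, and the brightest member of each family that did not pass, are given array by array. From each list the 2 largest rises and falls and the brightest gene that did not pass are named, and Adam9, Itga5, Lox, Col4a1, Col4a2 and Col5a2 were added array by array after their values were seen. Alternatives changed the background correction, scaling, filter, variance model, array weights, table, probe, replicate block and each array.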

Additional observations from a re-analysis of the deposited data

How the results depend on the processing

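Alternatives left most member calls as they were. Of the 43 called members, 37 to 43 were called in the same direction under 14 of 15 alternative fits. The other fit, with the 70th percentile filter, tested only 46 members. There 33 of the 43 kept their call, 0 lost it on testing, and the rest of the 43 were not tested. Members that rose numbered 15 to 20 and members that fell 20 to 25 over these fits and the second brightest probe. With that probe, 40 were called in the same direction, Itga6 and Loxl4 were lost and Col5a2 reversed. The count of members that fell at least 2-fold was 3 without background correction, with the authors' processed table and with the 70th percentile filter. For rises of at least 2-fold it was 6 without background correction, 6 with the processed table and 6 with the second brightest probe. The members' median was -0.085 without background correction, -0.0845 with the processed table, -0.15 with an offset of 16, -0.13 with array weights and -0.042 with the 70th percentile filter, and -0.17 to -0.0039 with 1 array left out. Without 1 array, collagen synthesis genes that fell numbered 3 to 6, and adhesion complex genes that rose 3 to 6; the latter were 3 with median scaling and 3 without an intensity trend. Signs turned for genes that did not pass: Itga3 (-0.0077 with median scaling; -0.0029 to 0.11 with 1 array left out), Itgae (-0.074 to 0.15), Adam10 (-0.011 to 0.26), Adam17 (-0.013 to 0.24), Adam28 (-0.14 to 0.14), Adamts8 (-0.34 to 0.0014), and Cd63 (-0.018 to 0.18). Signs also differed on other probes of Itgb1 (-0.36) and of the called genes Itga6 (-0.066) and Col5a2 (-0.79 and -0.55). The causes were not tested. With the letter as a replicate block, 18 members rose and 24 fell, and Col5a2 lost its call (adjusted p = 0.0536). Deviations of arrays with the same letter correlated at 0.101, -0.0899 and 0.0753 for A, B and C, so the letters do not show pairs.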
